A study of Homo sapiens with 9 samples.

Results

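The amino acid transporter families SLC1, SLC3, SLC6, SLC7, SLC36, SLC38 and SLC43 were followed in human hepatoma cells that lack either of 2 genes of lipoprotein assembly. Members were the protein-coding genes whose symbols carry one of these family names, which gave 60 of the 58735 genes in the count table, 19951 of them protein-coding. The label describes most members, but not all. SLC7A6OS carries a family name only because it lies opposite SLC7A6, SLC43A3 is known as a nucleobase transporter, and several SLC6 members carry creatine, taurine or neurotransmitters.

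RNA-seq was performed on Huh-7, an established hepatoma line of human origin, and on single knockout clones of it made with Cas9 nuclease. Ako-3 is 1 clone with a disrupted APOB gene, which encodes the structural protein of secreted lipoproteins, and Mko-3 is 1 clone with a disrupted MTTP gene, which encodes the protein that loads lipid onto it. Each group had 3 libraries, all of cells grown in DMEM with 10% fetal bovine serum and then kept overnight without serum. Since each genotype is 1 clone, a difference between the genotypes cannot be told apart from a difference between clones, and the p-values measure the spread between libraries. Both knockouts were compared with the same 3 Huh-7 libraries, so these comparisons are not independent. In bulk RNA, fewer cells of a type and less RNA per cell cannot be told apart.

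Amino acids cross the plasma membrane through exchangers and ion-coupled carriers. SLC7 light chains reach the membrane only when bound to an SLC3 heavy chain: SLC3A2 pairs with SLC7A5 to exchange leucine and other large neutral amino acids for glutamine, and with SLC7A11 to take up cystine in exchange for glutamate. SLC7A1 and SLC7A2 carry arginine and lysine, SLC1A5 exchanges glutamine and other neutral amino acids, and SLC38 and SLC36 members use sodium or protons to import small neutral amino acids. Many of these genes are known targets of ATF4, the transcription factor of the amino acid response, which binds with C/EBP partners to an element with the core TGATGNAA, while SLC7A11 is also known as a target of NRF2, which binds the antioxidant response element with the core TGACNNNGC.

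These cores were looked for on both strands in the RefSeq windows around start sites (build GRCh38.p14, 250 bases before to 50 bases after), where 45 members had 67 windows and the other 15, among them SLC7A11, SLC7A2, SLC7A4, SLC3A1, SLC1A2, SLC6A6, SLC38A3 and SLC43A3, had no entry. The core TGATGNAA was found in 6 member windows (8.96%) against 3.62% of all 35116 windows, in SLC1A3, SLC1A4, SLC1A5, SLC38A1, SLC3A2 and SLC7A1. The core TGACNNNGC was found in 7 member windows (10.4%) against 13.3% of all windows. It was found in SLC1A3, SLC1A5, SLC3A2, SLC7A1, SLC7A5, SLC7A6 and SLC7A7. The 120 bases before a start site are shown for 3 members that hold a match and had lower levels in both clones. SLC7A5 was also lower in both, but its match crosses the start site, and it is not shown. The matched core is in capitals. SLC1A5 (chr19:46784815-46784934, minus strand) holds TGATGNAA, while SLC3A2 (chr11:62881579-62881698, plus strand) and SLC7A1 (chr13:29595689-29595808, minus strand) hold TGACNNNGC here and have their TGATGNAA match after the start site. SLC1A5 and SLC3A2 have 3 windows each, and 1 with a match is shown, which lies inside the span of the gene in the count table. The TGACNNNGC match of SLC1A5 is not in the bases shown.
SLC1A5: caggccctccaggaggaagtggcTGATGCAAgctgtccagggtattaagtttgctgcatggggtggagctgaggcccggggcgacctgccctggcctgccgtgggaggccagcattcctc
SLC3A2: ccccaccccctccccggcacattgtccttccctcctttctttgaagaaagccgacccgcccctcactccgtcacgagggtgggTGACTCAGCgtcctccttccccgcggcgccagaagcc
SLC7A1: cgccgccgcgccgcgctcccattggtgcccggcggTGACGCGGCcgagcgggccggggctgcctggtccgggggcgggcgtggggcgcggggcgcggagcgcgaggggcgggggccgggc
Such matches describe the letters in these windows only, not binding. Members with a match did not share a direction. Against Huh-7, SLC1A3 had log2 fold changes of 0.65 in Ako-3 and 0.45 in Mko-3 cells, and SLC7A6 0.65 and 1.03. SLC7A5 had -0.98 and -0.17, SLC1A4 -0.20 and 0.55, SLC38A1 -0.28 and 0.05, and SLC7A7 -0.01 and 0.11.

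The 9 libraries held 14638727 to 20179760 counts. APOB was at 224 ± 40.5 FPKM (fragments scaled to gene length and a DESeq2 size factor per library, mean ± SD, n = 3) in Huh-7, 87.5 ± 6.1 in Ako-3 and 218 ± 9.5 in Mko-3 cells. MTTP was at 116 ± 5.2, 105 ± 5.2 and 16.0 ± 0.66 FPKM in the same order, so each targeted transcript was lower in its own clone. All 10 hepatocyte markers were above 1 FPKM in every group, with a summed level of 5190 to 5357 FPKM in Huh-7, 6228 to 6514 in Ako-3 and 5104 to 5348 in Mko-3 cells. None of 5 fibroblast markers reached 1 FPKM, and of 4 leukocyte markers PTPRC, CD68 and CD3E had at most 3 counts in every library. The fourth, the lysozyme gene LYZ, made up that list's sum at 148 to 160 FPKM in Huh-7, 181 to 198 in Ako-3 and 184 to 198 in Mko-3 cells. Of 4 cholangiocyte markers KRT7 had at most 3 counts, while the summed level was 120 to 128 FPKM in Huh-7, 118 to 124 in Ako-3 and 166 to 171 in Mko-3 cells, and of 4 endothelial markers PECAM1 made up most of 9.86 to 11.3, 13.5 to 14.6 and 7.30 to 7.97 FPKM. The share of counts from mitochondrial genes was 5.52 to 6.17% in Huh-7 and 7.06 to 7.40% in Ako-3 cells. The part of these differences in the results below was not tested.

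Of the 60 members, 34 had a mean above 1 FPKM in Huh-7, 35 in Ako-3 and 36 in Mko-3 cells, and 33 did so in all 3 groups. SLC1A3, SLC6A16, SLC6A19 and SLC7A4 passed this level in some groups only. For 6 members there was no count in any library (SLC1A6, SLC6A2, SLC6A5, SLC6A15, SLC7A3 and SLC7A13), and 9 others had at most 3 counts in every library, among them the dopamine transporter SLC6A3. The highest members in Huh-7 cells were SLC7A2 at 82.8 ± 6.81 FPKM, SLC7A5 at 75.1 ± 4.86, SLC43A1 at 68.8 ± 4.87, SLC1A5 at 62.8 ± 1.84 and SLC6A8 at 59.4 ± 4.55. Neighbours in this order lay close: the libraries of SLC7A2 and SLC7A5 overlapped, and so did those of SLC43A1 with SLC7A5. In Mko-3 cells the creatine transporter SLC6A8 headed the list at 109 ± 3.82 FPKM, and in Ako-3 cells too at 82.5 ± 4.70.

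**Figure D1:**
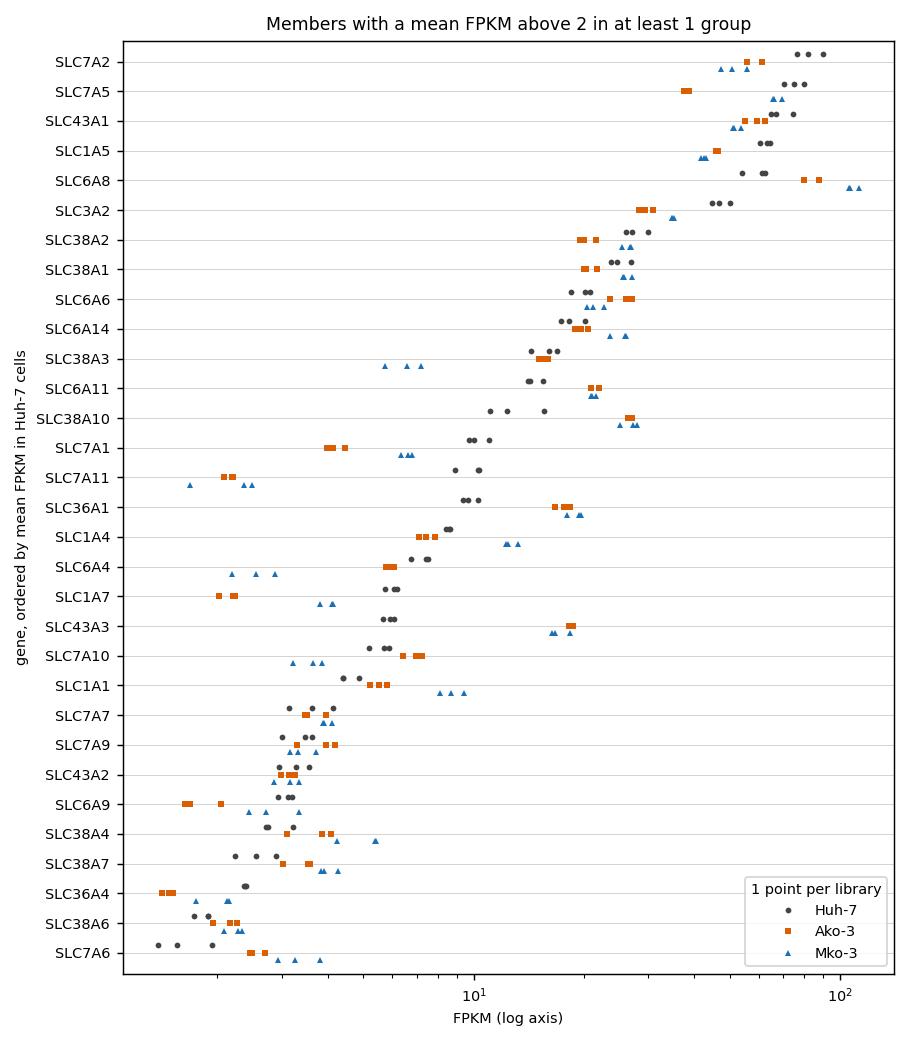
Level of each member with a mean above 2 FPKM in at least 1 group, 1 point per library on a log axis, ordered by the Huh-7 mean. SLC7A11 and SLC43A3 stand apart between Huh-7 and both clones (SLC7A11 at 8.91 to 10.4 FPKM in Huh-7 and at most 2.48 in the clones), while SLC43A2 and SLC7A7 overlap in all 3 groups.

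The summed FPKM of the members was 627 to 634 in Huh-7, 556 to 578 in Ako-3 and 624 to 627 in Mko-3 cells. The makeup of this sum differed by role. Light chains summed to 99.2 ± 4.46 FPKM in Huh-7, 57.2 ± 0.57 in Ako-3 and 83.7 ± 1.65 in Mko-3 cells, and cationic transporters to 93.4 ± 7.43, 64.0 ± 3.29 and 59.1 ± 4.32. The sum over the SLC6 carriers of creatine, taurine and neurotransmitters was 102 ± 4.003 FPKM in Huh-7, 136 ± 2.75 in Ako-3 and 154 ± 2.95 in Mko-3 cells. Most of it was SLC6A8, at 59.4, 82.5 and 109 FPKM. Of the 6 members of this role that were tested, SLC6A4 was the 1 called against Huh-7, lower in Mko-3 cells, and the median log2 fold change of the 6 was 0.50 in Ako-3 and 0.11 in Mko-3 cells.

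In each comparison a gene was called when its fold change was at least 2-fold (a log2 value of 1) and its adjusted p at most 0.05 in the edgeR quasi-likelihood fit, adjusted over all genes tested by Benjamini-Hochberg; only such genes are said here to have risen or fallen. A filter on low counts left 40 members in the comparison of Ako-3 with Huh-7 and 41 in each comparison with Mko-3, and 19 members were tested in none.

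In Ako-3 cells, 3 members rose (SLC43A3, SLC38A11 and SLC38A10), 7.5% of the members tested, against 3.52% of all genes tested. In the same cells, 3 members fell (SLC7A11, SLC1A7 and SLC7A1), also 7.5%, against 5.00% of all genes. In Mko-3 cells, 4 members rose (SLC7A4, SLC43A3, SLC38A10 and SLC7A6), 9.76% against 3.82% of all genes, and 3 fell (SLC7A11, SLC6A4 and SLC38A3), 7.32% against 7.22% of all genes. The median log2 fold change of the members tested was 0.04 in Ako-3 and 0.10 in Mko-3 cells, beside -0.01 over all genes in each.

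Most differences of members were under 2-fold. At the adjusted p alone, 14 of the 40 members tested were higher in Ako-3 cells, where 25.5% of all genes were, and 15 were lower, where 24.4% were. In Mko-3 cells 14 of 41 were higher, beside 26.9% of all genes, and 13 were lower, beside 27.1%.

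**Figure D2:**
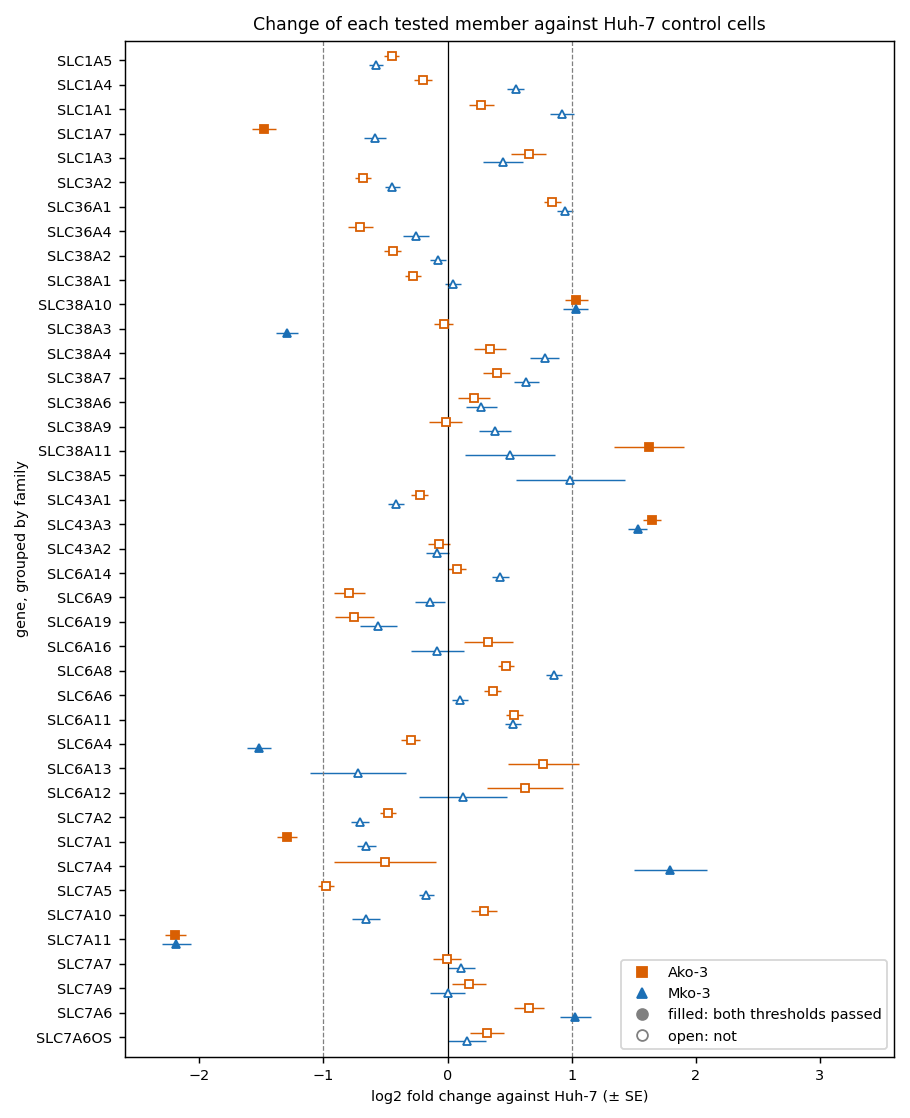
Log2 fold change with its SE of every member tested, in Ako-3 (squares) and Mko-3 cells (triangles) against the same Huh-7 libraries; filled symbols passed both thresholds and dashed lines mark 2-fold. SLC7A11 lies near -2.19 in both clones, SLC43A3 at 1.65 and 1.53, and SLC38A3, SLC6A4 and SLC7A4 pass in Mko-3 cells.

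The cystine/glutamate exchanger SLC7A11 (ENSG00000151012, chromosome 4, 138164097 to 138242349, minus strand, hg38) had the lowest fold change of any member in both clones. Its level was 8.91, 10.4 and 10.3 FPKM in the Huh-7 libraries, 2.19, 2.21 and 2.09 in Ako-3 and 2.36, 2.48 and 1.68 in Mko-3 cells. Every clone library was thus below every Huh-7 library, while the clones overlapped each other. SLC7A11 fell 4.58-fold in Ako-3 cells (log2 fold change -2.19, SE 0.083, edgeR adjusted p = 7.4e-14) and 4.55-fold in Mko-3 cells (-2.19, SE 0.12, adjusted p = 1.2e-09). Between the clones the log2 difference was 0.01, with an approximate 95% interval from -0.18 to 0.20. Its antisense gene SLC7A11-AS1, which shares 8.97% of its exonic bases, had at most 12 counts in any library, where SLC7A11 had 250 to 1812.

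SLC7A11 lies 38.5 Mb beyond MTTP on the same chromosome arm, so its neighbours were looked at. The other 230 genes tested beyond MTTP had a median log2 fold change of -0.24 in Mko-3 cells, and 163 of them were below 0, whereas the 351 genes before MTTP had a median of 0.10. Relative to the median beyond MTTP, SLC7A11 was at -1.94 on the log2 scale in Mko-3 cells, and 1 of these 230 genes was as low or lower. In Ako-3 cells the other 231 genes beyond MTTP had a median of -0.06, and none was as low as SLC7A11, which was -2.13 from it. The nearest protein-coding genes tested were C4orf33, 9.05 Mb before it, with -0.17 (SE 0.13) in Ako-3 and -0.69 (SE 0.14) in Mko-3 cells, and NOCT, 0.773 Mb after it, with -0.62 (SE 0.12) and -0.36 (SE 0.11). The part of the lower median beyond MTTP in the Mko-3 value of SLC7A11 was not tested.

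**Figure D3:**
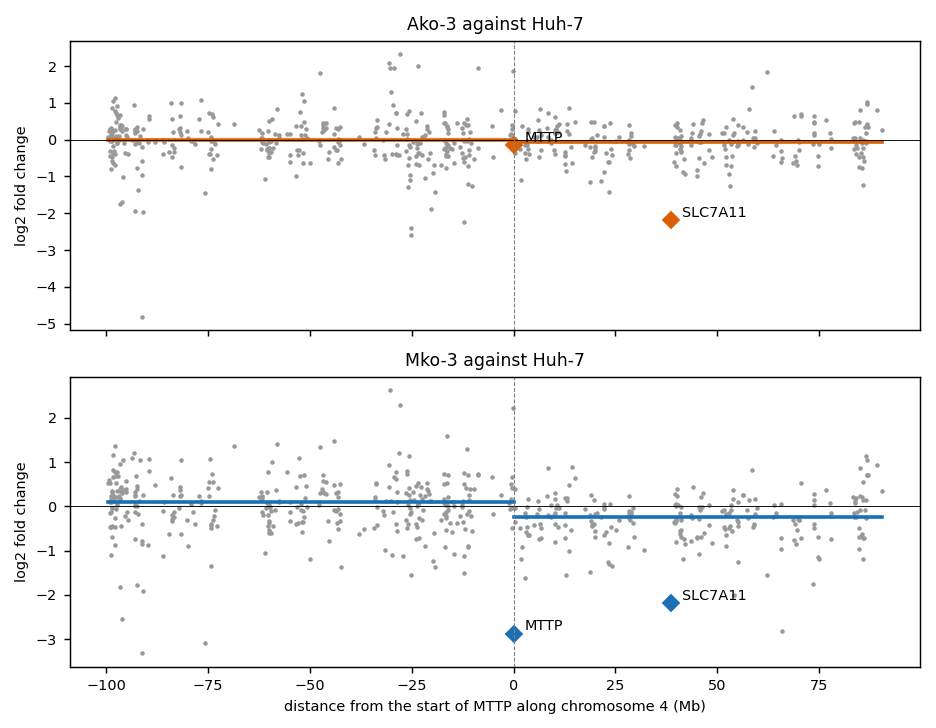
Log2 fold change of the genes tested on chromosome 4 against their distance from the start of MTTP, for Ako-3 (top) and Mko-3 cells (bottom); horizontal lines are the medians on either side of MTTP. In Mko-3 cells the median is 0.10 before and -0.24 beyond MTTP, and SLC7A11 lies well below both, as it does in Ako-3 cells.

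The partners of SLC7A11 moved less. The heavy chain SLC3A2 was at 50.05, 46.7 and 44.8 FPKM in Huh-7, 28.4, 30.8 and 29.5 in Ako-3 and 34.7, 34.8 and 35.3 in Mko-3 cells, with no overlap between any groups. It was 1.60-fold lower in Ako-3 cells (log2 fold change -0.68, SE 0.064, adjusted p = 3.1e-08) and 1.36-fold lower in Mko-3 cells (-0.45, SE 0.061, adjusted p = 2.6e-06), under the 2-fold threshold in both. The other heavy chain, SLC3A1, the partner of SLC7A9 in cystine uptake of kidney and gut, had 0 to 11 counts in a library and was not tested.

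The leucine exchanger SLC7A5 was at 74.9, 80.0 and 70.3 FPKM in Huh-7, 38.2, 38.7 and 37.6 in Ako-3 and 66.1, 65.7 and 69.7 in Mko-3 cells. Ako-3 cells lay below both other groups, whereas the Mko-3 libraries lay just under those of Huh-7. SLC7A5 had -0.98 on the log2 scale (SE 0.062, adjusted p = 1e-10) in Ako-3 cells, just under 2-fold and past it, at -1.02, without Huh-7 replicate 3. In Mko-3 cells it was -0.17 (SE 0.061, adjusted p = 0.021), and the direct comparison of the clones gave 0.81 (SE 0.042, adjusted p = 6e-28), higher in Mko-3 cells. The SLC7A5 pseudogene SLC7A5P1 had 20 to 43 counts in a library.

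Among the other light chains, SLC7A6, which exchanges arginine for neutral amino acids with sodium, was at 1.37, 1.93 and 1.56 FPKM in Huh-7, 2.45, 2.49 and 2.70 in Ako-3 and 3.25, 2.92 and 3.80 in Mko-3 cells. It rose in Mko-3 cells (log2 fold change 1.03, SE 0.12, adjusted p = 6.9e-07), a call that did not hold at 0.92 without Huh-7 replicate 1 or at 0.94 without Mko-3 replicate 3. SLC7A6 shares 44.4% of its exonic bases with SLC7A6OS on the opposite strand, so without a known strand setting its values are uncertain, and those of SLC7A6OS (0.32 and 0.16) likewise. SLC7A10, which carries serine and glycine, was at 5.59 ± 0.35 FPKM in Huh-7, 6.88 ± 0.44 in Ako-3 and 3.57 ± 0.32 in Mko-3 cells. The 3 groups did not overlap, and SLC7A10 had 0.29 on the log2 scale (SE 0.10) in Ako-3 and -0.66 (SE 0.12) in Mko-3 cells. SLC7A7 and SLC7A9 had adjusted p values of 0.31 or more in all comparisons, and SLC7A8 had 0 to 15 counts.

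Set against the light chains that pair with it, SLC3A2 had a ratio to their summed FPKM of 0.493 ± 0.036 in Huh-7, 0.553 ± 0.025 in Ako-3 and 0.436 ± 0.006 in Mko-3 cells, with the Huh-7 and Ako-3 libraries overlapping at 0.529 to 0.532. Of the summed FPKM of all 8 light chains, SLC7A9 included, SLC7A5 made up 75.7 ± 1.88% in Huh-7, 66.7 ± 0.74% in Ako-3 and 80.3 ± 1.12% in Mko-3 cells. The share of SLC7A11 in the same sum went from 9.96 ± 0.83% in Huh-7 to 3.77 ± 0.086% in Ako-3 and 2.61 ± 0.56% in Mko-3 cells.

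**Figure D4:**
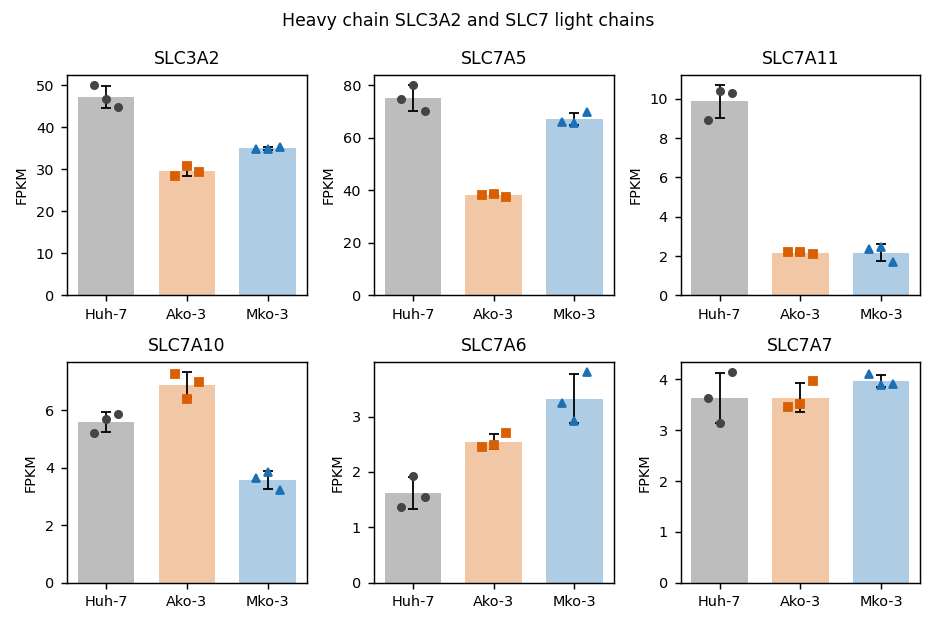
FPKM of the heavy chain SLC3A2 and of 5 SLC7 light chains in each library (points), with the mean (bar) and SD (error bar) of 3 libraries per group. SLC7A11 is low in both clones, SLC7A5 is low in Ako-3 cells at 37.6 to 38.7 FPKM, SLC7A10 is lowest in Mko-3 cells, and SLC7A7 overlaps across groups.

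Of the cationic transporters, SLC7A1, the widely expressed arginine carrier, was at 9.72, 10.0 and 11.01 FPKM in Huh-7, 4.45, 4.13 and 3.99 in Ako-3 and 6.33, 6.77 and 6.62 in Mko-3 cells. The groups did not overlap. SLC7A1 fell in Ako-3 cells (log2 fold change -1.29, SE 0.079, adjusted p = 6.4e-11), with -0.65 (SE 0.074, adjusted p = 2.1e-07) in Mko-3 cells. SLC7A2, the carrier typical of liver, supplied 88.6 ± 0.41% of the summed FPKM of this group in Huh-7, 93.0 ± 0.24% in Ako-3 and 86.7 ± 0.72% in Mko-3 cells. Its own level was 76.5 to 90.0 FPKM in Huh-7, 55.9 to 61.4 in Ako-3 and 47.4 to 55.7 in Mko-3 cells, or -0.48 (SE 0.067) and -0.70 (SE 0.070) on the log2 scale. SLC7A4, a relative with no established substrate, had 9 to 20 counts in the Huh-7 libraries, 7 to 14 in Ako-3 and 41 to 67 in Mko-3 cells. It rose 3.47-fold in Mko-3 cells (1.80, SE 0.29, adjusted p = 2.4e-05), but 73.6% of its exonic bases are shared with another gene model on the same strand, ENSG00000291240, so its counts are uncertain.

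In the SLC1 family, the glutamine exchanger SLC1A5 was at 63.4, 64.3 and 60.7 FPKM in Huh-7, 46.4, 45.8 and 46.1 in Ako-3 and 42.5, 43.04 and 41.9 in Mko-3 cells. No groups overlapped, and the log2 fold changes were -0.45 (SE 0.059, adjusted p = 2.8e-06) and -0.58 (SE 0.059, adjusted p = 5.6e-08). SLC1A5 shares 23.4% of its exonic bases with a gene model on the opposite strand, ENSG00000275719. Without a known strand setting its values are therefore uncertain. The glutamate transporter SLC1A7 was at 5.73 to 6.20 FPKM in Huh-7, 2.02 to 2.24 in Ako-3 and 3.82 to 4.14 in Mko-3 cells. It fell 2.79-fold in Ako-3 cells (-1.48, SE 0.098, adjusted p = 1.9e-10), with -0.59 (SE 0.089) in Mko-3 cells. The serine and alanine exchanger SLC1A4 was at 7.11 to 7.86 FPKM in Ako-3 cells, below the 8.43 to 8.65 of Huh-7, and at 12.3 to 13.2 in Mko-3 cells, above them. The values on the log2 scale were -0.20 (SE 0.072, adjusted p = 0.026) in Ako-3 and 0.55 (SE 0.068, adjusted p = 6.9e-07) in Mko-3 cells. SLC1A1, which carries glutamate and cysteine, had 0.27 (SE 0.099) and 0.92 (SE 0.094). The astrocyte glutamate transporter SLC1A2 had 10, 11 and 14 counts in the Ako-3 libraries and 0 or 1 in each Huh-7 library, with 0 in each Mko-3 library, and was too low to be tested; it was singled out after its counts were seen.

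In the SLC38 family, SLC38A10, a broadly expressed member, was at 12.3, 15.6 and 11.1 FPKM in Huh-7, 26.4, 27.1 and 26.6 in Ako-3 and 27.9, 25.1 and 27.2 in Mko-3 cells. All clone libraries were above all Huh-7 libraries, which spread more widely. SLC38A10 rose 2.05-fold in Ako-3 (1.04, SE 0.093, adjusted p = 3.8e-07) and as much in Mko-3 cells (1.03, SE 0.10, adjusted p = 1.4e-06), both of which were under 2-fold without Huh-7 replicate 3, at 0.94 and 0.93. The hepatic glutamine transporter SLC38A3 was at 16.9, 14.4 and 16.1 FPKM in Huh-7, 15.4, 16.0 and 15.1 in Ako-3 and 6.59, 7.17 and 5.73 in Mko-3 cells. Only the Mko-3 libraries stood apart, and SLC38A3 fell 2.45-fold there (-1.29, SE 0.091, adjusted p = 2.1e-10). In Ako-3 cells SLC38A3 had -0.03 (approximate 95% interval -0.18 to 0.12). SLC38A11, a low member, had 11 to 24 counts in the Huh-7 libraries, 52 to 71 in Ako-3 and 20 to 37 in Mko-3 cells. It rose in Ako-3 cells (1.62, SE 0.28, adjusted p = 7.8e-05), with 0.50 (SE 0.36, adjusted p = 0.25) in Mko-3 cells.

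The system A carriers SLC38A1 and SLC38A2, which load cells with glutamine and alanine, stayed under the 2-fold threshold. SLC38A2 was at 26.1 to 29.9 FPKM in Huh-7, 19.6 to 21.6 in Ako-3 and 25.4 to 27.0 in Mko-3 cells, or -0.44 (SE 0.067, adjusted p = 1.5e-05) and -0.08 (adjusted p = 0.30) on the log2 scale. SLC38A1 had -0.28 (SE 0.065, adjusted p = 0.0012) and 0.05 (adjusted p = 0.56). SLC38A9, the lysosomal arginine sensor, was near 1 FPKM, with -0.02 (SE 0.14) in Ako-3 and 0.38 (SE 0.13) in Mko-3 cells. The lysosomal proton-coupled carrier SLC36A1 was at 9.36 to 10.3 FPKM in Huh-7, 16.7 to 18.3 in Ako-3 and 18.0 to 19.6 in Mko-3 cells, 1.80-fold higher (0.84, SE 0.069, adjusted p = 4.4e-09) and 1.93-fold higher (0.95, SE 0.068, adjusted p = 2.8e-10), just under the threshold.

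In the SLC43 family, SLC43A3 was at 5.67, 6.07 and 5.93 FPKM in Huh-7, 18.7, 18.5 and 18.3 in Ako-3 and 16.4, 16.7 and 18.4 in Mko-3 cells, so both clones lay far above Huh-7 and overlapped each other. It rose 3.13-fold in Ako-3 (1.65, SE 0.074, adjusted p = 9.3e-13) and 2.89-fold in Mko-3 cells (1.53, SE 0.078, adjusted p = 1.7e-12). A read-through gene on the same strand that shares 29.9% of its exonic bases had at most 2 counts in any library. How reads on the shared bases were assigned is not known, so SLC43A3 counts there are uncertain. SLC43A1, a leucine carrier of liver, was at 65.0 to 74.3 FPKM in Huh-7, 55.2 to 62.5 in Ako-3 and 51.0 to 53.9 in Mko-3 cells, with -0.22 (SE 0.067) and -0.41 (SE 0.064). SLC43A2, its close relative, had -0.07 (adjusted p = 0.53) and -0.08 (adjusted p = 0.47).

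Of the SLC6 members that carry amino acids, SLC6A14, which takes up neutral and cationic amino acids, was highest. Its level was 17.4 to 20.2 FPKM in Huh-7, 18.9 to 20.5 in Ako-3 and 23.7 to 26.1 in Mko-3 cells, with 0.08 on the log2 scale (adjusted p = 0.39) in Ako-3 and 0.43 (SE 0.071, adjusted p = 3.4e-05) in Mko-3 cells. The glycine transporter SLC6A9 had -0.79 (SE 0.12, adjusted p = 2.2e-05) in Ako-3 and -0.14 (adjusted p = 0.34) in Mko-3 cells.

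Among the other SLC6 members, the creatine transporter SLC6A8 was at 61.5, 62.6 and 54.2 FPKM in Huh-7, 79.9, 88.0 and 79.7 in Ako-3 and 113, 107 and 106 in Mko-3 cells. The 3 groups did not overlap, and SLC6A8 was higher by 0.47 on the log2 scale (SE 0.066, adjusted p = 5.6e-06) in Ako-3 and 0.86 (SE 0.063, adjusted p = 4e-10) in Mko-3 cells. The serotonin transporter SLC6A4 was at 7.41, 6.75 and 7.53 FPKM in Huh-7, 6.05, 5.89 and 5.79 in Ako-3 and 2.56, 2.88 and 2.19 in Mko-3 cells. SLC6A4 fell 2.86-fold in Mko-3 cells (-1.52, SE 0.097, adjusted p = 5.9e-11), with -0.30 (SE 0.077, adjusted p = 0.0031) in Ako-3 cells. The GABA transporter SLC6A11 had 0.54 (SE 0.065) and 0.52 (SE 0.064), and the taurine transporter SLC6A6 had 0.36 (SE 0.068) and 0.10 (adjusted p = 0.19). SLC6A13, which carries GABA and taurine, was low, with 16 to 35 counts in the Huh-7 libraries, 37 to 56 in Ako-3 and 10 to 24 in Mko-3 cells. On the log2 scale SLC6A13 had 0.77 (SE 0.29, adjusted p = 0.03) in Ako-3 and -0.72 (SE 0.39, adjusted p = 0.12) in Mko-3 cells; without Huh-7 replicate 3 it was past both thresholds in Ako-3 cells at 1.08, and without Mko-3 replicate 1 it was so in Mko-3 cells at -1.21.

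The direct comparison of the clones called 1 member higher in Mko-3 than in Ako-3 cells, 2.44% of the 41 tested against 2.26% of all genes, and 4 lower, 9.76% against 3.47% of all genes. At the adjusted p alone 17 of the 41 members were higher, beside 21.1% of all genes, and 9 were lower, beside 20.6%. SLC7A4 was the member higher in Mko-3 cells (2.30, SE 0.31, adjusted p = 2e-09). Of the lower members, SLC38A3 had -1.26 (SE 0.071, adjusted p = 5.8e-26), SLC6A4 -1.22 (SE 0.082, adjusted p = 7.9e-22), SLC6A13 -1.49 (SE 0.32, adjusted p = 7.2e-05) and SLC38A11 -1.12 (SE 0.26, adjusted p = 0.00022). SLC38A11 was under 2-fold, at -0.92, -0.95 and -0.94, without Ako-3 replicate 1, Mko-3 replicate 1 and Mko-3 replicate 2. The higher count was 3 without Ako-3 replicate 2 and 2 without Mko-3 replicate 3, and the lower count against Huh-7 in Mko-3 cells was 5 without Mko-3 replicate 1.

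Genes that share a pathway with these transporters were read from lists drawn up by function, with earlier results of these data already known. The counts from these lists are therefore not independent evidence. Of 30 amino acid response genes, all tested, 1 rose and 9 fell in Ako-3 cells, and 1 rose and 11 fell in Mko-3 cells, where 3.52% of all genes rose and 5.00% fell in Ako-3 and 3.82% rose and 7.22% fell in Mko-3 cells. The list's median log2 fold changes were -0.60 and -0.66 beside -0.01 over all genes. Between the clones edgeR called none higher and 1 lower, as DESeq2 did, with 8 higher and 9 lower at an unadjusted p under 0.05. CHAC1, which degrades glutathione, fell in both clones (-2.19, SE 0.11, adjusted p = 2.6e-12 in Ako-3 and -1.91, SE 0.094, adjusted p = 9.2e-13 in Mko-3 cells), as did CTH, which makes cysteine from cystathionine (-2.09 and -2.05), and the transcription factor ATF3 (-1.92 and -1.24). The asparagine synthetase ASNS, also on the list of glutamine and glutamate enzymes, was at 4.50 ± 0.40 FPKM in Huh-7, 0.776 ± 0.093 in Ako-3 and 0.823 ± 0.12 in Mko-3 cells (-2.54 and -2.46). The C/EBP factor CEBPB fell in Mko-3 cells (-1.29, SE 0.067), with -0.75 in Ako-3 cells. ATF5 was the member of this list that rose, by 1.81 and 1.42, and NUPR1, a stress-induced chromatin protein, had 0.98 in Ako-3 cells and fell in Mko-3 cells (-1.57), with -2.56 between the clones. The mRNA of ATF4 itself had -0.11 (adjusted p = 0.16) and -0.17 (adjusted p = 0.024). SLC7A11, SLC43A3, CTH, CHAC1 and DDIT3 are also among genes that the study listed from these libraries, so their directions are not independent evidence.

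**Figure D5:**
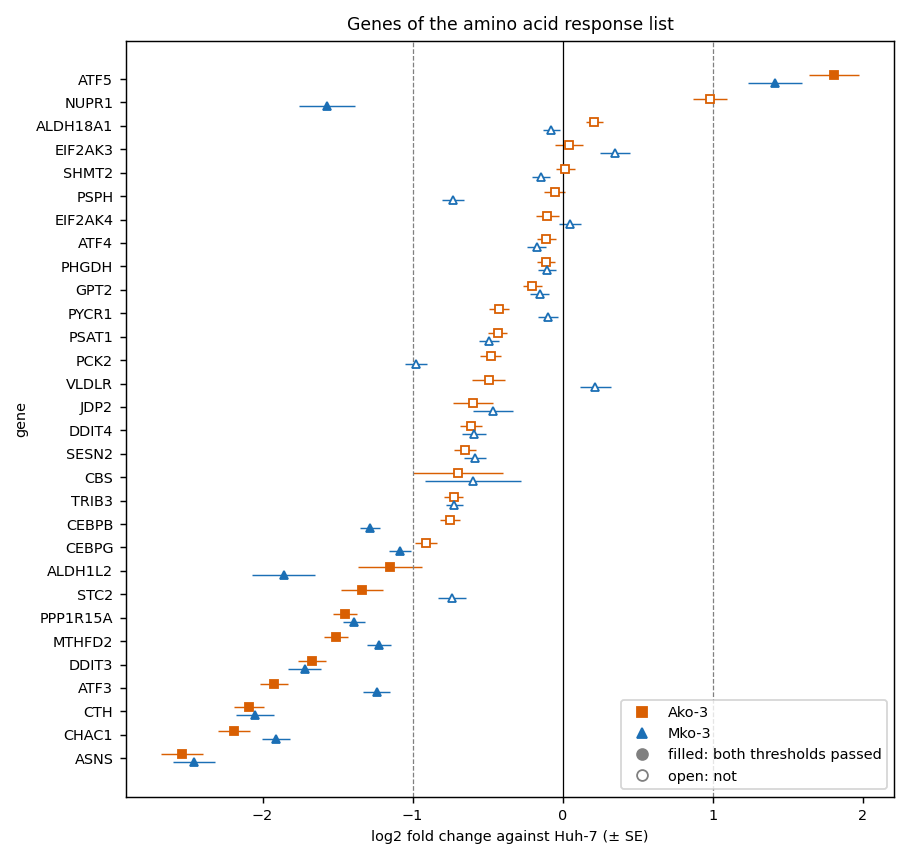
Log2 fold change with its SE of the 30 genes of the amino acid response list in Ako-3 (squares) and Mko-3 cells (triangles); filled symbols passed both thresholds. ASNS, CHAC1, CTH and DDIT3 lie toward the low end in both clones, ATF5 at the high end, and NUPR1 on opposite sides of 0. ATF3 lies below DDIT3 in Ako-3 cells, and ALDH1L2 lies below DDIT3 in Mko-3 cells.

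The counts of the other lists are to be read against the same shares of all genes, 3.52% higher and 5.00% lower in Ako-3 and 3.82% and 7.22% in Mko-3 cells. Of 18 cystine and glutathione genes tested, 1 rose and 2 fell in each clone: CTH and CHAC1 fell, the liver methionine adenosyltransferase MAT1A rose in Ako-3 cells (1.09, SE 0.097), and its paralogue MAT2A rose in Mko-3 cells (1.37, SE 0.073). Its medians were -0.14 and -0.23. Of 19 NRF2 target genes, OSGIN1 fell in Ako-3 cells (-1.11, SE 0.091) and none was called in Mko-3 cells by edgeR or DESeq2, where 7 were higher and 7 lower at an unadjusted p under 0.05. The list medians were -0.04 in each clone. Of 25 genes of amino acid sensing by mTORC1, none was called in Ako-3 cells by edgeR or DESeq2, with 6 higher and 6 lower at an unadjusted p under 0.05. The arginine sensor CASTOR1, at under 1 FPKM, fell in Mko-3 cells (-1.31, SE 0.45, adjusted p = 0.018), which DESeq2 did not call. Of the amino acid transporters of other families, 19 were tested in Ako-3 and 20 in Mko-3 cells, and only the mitochondrial aspartate/glutamate carrier SLC25A12 was called, lower in both (-1.47 and -3.27) from a level of 0.299 ± 0.066 FPKM. Of 13 glutamine and glutamate enzymes, ASNS fell in both clones and the alanine aminotransferase GPT fell in Mko-3 cells (-1.98, SE 0.16), with -0.73 in Ako-3 cells.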

How the data were processed

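RNA was sequenced from 9 libraries, 3 each of Huh-7, Ako-3 and Mko-3 cells, which GEO's labels give as biological replicates. Poly-A RNA was sequenced as paired reads, which per the labels and the study's methods were aligned to hg38 with HISAT2 2.0.5 and counted with featureCounts 1.5.0-p3. The strand setting and annotation release are not given in the sources used here. The authors deposited counts per gene and FPKM per gene. The deposited FPKM equalled counts divided by length and by DESeq2 size factors. Levels are FPKM. Tests used the counts with edgeR 4.0.16 (R 4.3.3, limma 3.58.1), TMM scaling, a filter of at least 10 counts by filterByExpr and robust quasi-likelihood, on the 6 libraries of each comparison, with Benjamini-Hochberg adjustment over all genes. The fit was tested on simulated data. DESeq2 1.42.0, other filters, 1 fit of all libraries, the replicate block and leaving out each library were alternatives. Counts per library limit the precision.

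The members and lists were chosen with earlier results of these data known. Named were members called in any comparison, the highest member of each role and any above 10 FPKM, SLC7A11, SLC3A1 and SLC3A2, and up to 4 genes per pathway list by adjusted p; others are given as descriptions. Gene positions came from the count table, exon overlaps from GENCODE (hg38) and start-site windows from RefSeq. No library was a duplicate of another. Replicate numbers did not pair the libraries.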

Additional observations from a re-analysis of the deposited data

Results flagged for a closer look

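Comparing Mko-3 with Ako-3 directly, 17 of the 41 members tested were higher and 9 lower at the adjusted p alone. Over all genes tested, 21.1% were higher and 20.6% lower. Of these members, 5 differed by at least 2-fold as well (edgeR log2 fold changes, adjusted over all genes). SLC38A3 (-1.26), SLC6A4 (-1.22), SLC6A13 (-1.49) and SLC38A11 (-1.12) were lower in Mko-3 cells. SLC7A4 (2.30) was higher in Mko-3 cells. SLC6A13, SLC38A11 and SLC7A4 rest on at most 71 counts in a library.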

How the results depend on the processing

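Among values of named members, 889 kept their side of the threshold, 7 lost and 3 gained a call, and no called value changed direction. Some values near 0 did change sign between settings. Among them were SLC38A3 in Ako-3 against Huh-7 (-0.09 to 0.02) and SLC7A11 in Mko-3 against Ako-3 (-0.10 to 0.16). At the adjusted p alone, members called higher and lower were 14 and 15 of 40 in Ako-3 against Huh-7. They were 14 and 13 of 41 in Mko-3 against Huh-7, and 17 and 9 of 41 in Mko-3 against Ako-3. The median log2 fold change of members in Ako-3 against Huh-7 was 0.1005 with no filter, 0.0682 with 10 counts in every library and 0.0872 with DESeq2; in Mko-3 against Huh-7 it was 0.0339 with 10 counts in every library. In Mko-3 against Ako-3 it was 0.0516 with no filter, 0.0544 with 10 counts in every library and 0.0667 with DESeq2, and the number called higher was 2 with no filter and 0 with 10 counts in every library, where SLC7A4 was not tested. Leaving out 1 library gave medians of -0.0923 to 0.171 in Ako-3 and 0.0327 to 0.117 in Mko-3 against Huh-7, 3 to 5 lower members in Mko-3 against Huh-7, and 1 to 3 higher members in Mko-3 against Ako-3. The median in Ako-3 cells was -0.0923 without Huh-7 replicate 2, so its sign rests on that library. The cause was not tested. Same-numbered libraries had correlations of -0.19 to 0.14, 2 of 9 over 0.1, and 3 of 9 correlated best with their own number; with the replicate block, the pairing left 3 higher and 3 lower members in Ako-3 and 4 and 3 in Mko-3 against Huh-7. Depth limits the members with few counts, 19 of which were not tested.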
